A study of Homo sapiens with 24 samples.

Results

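Class I antigen presentation genes make, carry, trim and display the peptides that cells show to T cells, and 10 of them were followed here across human embryonic stem cells: PSMB8, PSMB9, PSMB10, TAP1, TAP2, TAPBP, ERAP1, B2M, HLA-E and HLA-F. They were chosen by gene symbol. All probe sets annotated with 1 of these symbols were taken, 25 of 54675 on the array, and each gene was represented by its probe set with the highest mean over the 24 arrays, which gives 10 of the 19775 genes measured. All 10 genes lay above the filter on low values (a log2 value above 5 on at least 3 arrays) in both experiments of the series.

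RNA was measured on Affymetrix expression arrays in the established lines H1, H9 and HSF1, with the aim of learning what feeders, their secreted factors and a block of lactate transport do to expression. The first experiment held 12 arrays, 1 for each line in feeder-supported (FS) cells with inhibitor, FS cells with DMSO, feeder-free (FF) cells with inhibitor and FF cells with DMSO. The inhibitor was AZD3965 at 250 nM for 5 days, an agent against the lactate transporter MCT1, and the feeders were mouse embryonic fibroblasts. The second experiment held 12 arrays of FF cells, 3 biological replicates each of H9 in conditioned medium, H9 in unconditioned medium, HSF1 in conditioned medium and HSF1 in unconditioned medium. The duration of the conditioned medium treatment is uncertain, since the labels state 5 days but the design text states 24 hours. With 1 array per line and condition, p-values of the first experiment rest on the spread left after terms for group and line. That spread holds unlike responses of the lines and line differences that change with the culture system. P-values of the second rest on the spread between replicates, pooled over H9 and HSF1, which may not hold for other lines.

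Values are log2 array values, on which a difference of 1 is a 2-fold difference, and a call is an adjusted p below 0.05 over all genes tested. The mean of 10 pluripotency markers lay between 11.65 and 12.69 on every array. Of the leukocyte genes PTPRC, the pan-leukocyte marker, lay between 4.07 and 4.87, below log2 5 on every array. CD14 lay between 4.47 and 5.94, LYZ between 4.87 and 6.43, and ITGAM between 5.35 and 6.92, above log2 5 on every array. The class II genes were higher, such as CD74 between 6.68 and 7.93 and HLA-DPB1 between 7.92 and 9.34. The mean of 20 fibroblast markers lay between 7.89 and 8.74 on FS arrays, against 6.94 to 8.05 on FF arrays, and how far mouse RNA entered the FS values was not tested. The FS HSF1 arrays stood apart, with correlations of 0.860 to 0.961 with the other 22 arrays, against 0.948 to 0.998 among those 22. ACTB control probe sets at the ends of the transcript, which differ more when RNA is degraded, were 3.25 and 2.89 apart in unconditioned H9 replicates 2 and 3, where replicate 1 gave 1.07. In RNA from whole cultures, fewer cells that express a gene and less RNA per cell cannot be told apart.

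Proteasomes cut proteins into peptides, and immune cells and cells exposed to interferon exchange catalytic subunits for the immunosubunits PSMB8, PSMB9 and PSMB10. The transporter of TAP1 and TAP2 carries peptides into the endoplasmic reticulum, where ERAP1 trims them and tapasin, the product of TAPBP, helps to load them on class I heavy chains paired with the light chain B2M. HLA-E and HLA-F are nonclassical heavy chains, of which HLA-E is a ligand of receptors on natural killer cells. Human embryonic stem cells are known for low class I levels on their surface that interferon raises.

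TAP2, PSMB8, TAP1 and PSMB9 follow each other as neighbouring protein-coding genes on chromosome 6, where HLA-E, HLA-F and TAPBP also lie. B2M is on chromosome 15, PSMB10 on chromosome 16 and ERAP1 on chromosome 5. TAP1 and PSMB9 point away from each other and their annotated ends lie 487 bases apart. The windows from 250 bases before to 50 after the start are shown for 6 of the members, PSMB9 and TAP1 being head to head. PSMB8 and TAP1 have 2 windows each, of which the one with the motif below is shown and the other holds no match to it. The capitals mark GAAA-NN-GAAA without a gap, the core of the interferon-stimulated response element, on either strand. The sequences are RefSeq's, build GRCh38.p14, written in the direction of the gene, for the plus strand (PSMB9, B2M) or the minus strand (TAP1, PSMB8, TAPBP, PSMB10).
PSMB9, chr6:32853942-32854241: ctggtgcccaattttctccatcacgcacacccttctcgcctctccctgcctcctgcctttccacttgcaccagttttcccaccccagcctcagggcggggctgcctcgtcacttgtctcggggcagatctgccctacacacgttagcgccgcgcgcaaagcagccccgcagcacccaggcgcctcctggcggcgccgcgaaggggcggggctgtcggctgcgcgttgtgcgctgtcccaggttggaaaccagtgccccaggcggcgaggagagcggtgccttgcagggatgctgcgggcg
TAP1, chr6:32853655-32853954: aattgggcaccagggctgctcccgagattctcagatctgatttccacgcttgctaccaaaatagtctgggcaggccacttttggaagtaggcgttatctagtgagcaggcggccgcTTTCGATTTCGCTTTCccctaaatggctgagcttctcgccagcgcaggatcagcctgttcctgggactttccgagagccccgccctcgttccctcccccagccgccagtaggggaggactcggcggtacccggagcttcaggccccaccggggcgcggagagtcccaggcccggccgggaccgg
B2M, chr15:44711267-44711566: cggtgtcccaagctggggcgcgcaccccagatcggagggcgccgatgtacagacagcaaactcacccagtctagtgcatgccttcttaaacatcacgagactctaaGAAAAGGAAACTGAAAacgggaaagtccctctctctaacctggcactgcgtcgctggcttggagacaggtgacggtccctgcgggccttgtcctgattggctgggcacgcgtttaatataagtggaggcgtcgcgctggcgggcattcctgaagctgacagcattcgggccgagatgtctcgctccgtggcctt
PSMB8, chr6:32843998-32844297: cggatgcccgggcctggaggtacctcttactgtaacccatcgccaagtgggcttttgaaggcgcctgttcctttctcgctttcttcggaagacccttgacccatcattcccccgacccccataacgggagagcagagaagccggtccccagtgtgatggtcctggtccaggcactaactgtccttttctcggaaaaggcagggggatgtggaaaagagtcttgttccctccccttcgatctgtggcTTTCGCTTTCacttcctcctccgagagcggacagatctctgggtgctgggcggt
TAPBP, chr6:33314029-33314328: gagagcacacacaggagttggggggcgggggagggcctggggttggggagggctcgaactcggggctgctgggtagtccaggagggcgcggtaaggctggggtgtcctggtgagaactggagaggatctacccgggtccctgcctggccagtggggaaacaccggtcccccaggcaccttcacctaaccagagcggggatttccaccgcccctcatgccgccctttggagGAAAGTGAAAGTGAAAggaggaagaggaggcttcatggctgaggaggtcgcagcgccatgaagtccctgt
PSMB10, chr16:67936801-67937100: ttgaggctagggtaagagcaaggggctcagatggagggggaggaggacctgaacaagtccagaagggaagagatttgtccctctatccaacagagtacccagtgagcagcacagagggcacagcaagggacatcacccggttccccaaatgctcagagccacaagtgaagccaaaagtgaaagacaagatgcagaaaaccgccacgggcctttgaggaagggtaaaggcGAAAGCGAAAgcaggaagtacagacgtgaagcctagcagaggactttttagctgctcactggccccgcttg

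Of the 10 members 9 have windows in the RefSeq table, 12 in all because ERAP1, PSMB8 and TAP1 have more than 1, and HLA-E has none. GAAA-NN-GAAA was found in 8 of the 12 windows and 8 of the 9 genes, all but PSMB9, against 3.57% of all 35116 windows. B2M, TAP1 and TAPBP each hold overlapping matches. CCAAT, the core of the Y box, was found on either strand in 5 of the 12 windows, those of B2M, PSMB9, TAP1, HLA-F and ERAP1, against 34.6% of all windows, and PSMB9 and TAP1 share 1 site where their windows overlap. TTCNNNGAA, the interferon-gamma activated site, was found for PSMB8 and TAP1, against 7.66% of all windows. Such matches are letters in a window and show no binding.

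Inhibitor against DMSO was the first comparison, and PSMB9 and B2M had the largest differences of the 10 genes. PSMB9 rose by 0.92 on the log2 scale over both culture systems (SE 0.135, 1.89-fold, limma adjusted p = 0.0145) and was higher with inhibitor in all of the 6 line and culture pairs. It was the 1 member that passed the threshold, where 0.47% of all 17218 genes were called higher. B2M differed by 0.94 (SE 0.202, limma adjusted p = 0.0685, 6 of 6 pairs), and HLA-E by 0.46 (SE 0.176, limma adjusted p = 0.457, 6 of 6 pairs). These 3 genes were higher in every pair, as were 9.93% of all genes. All 10 differences were above 0, against 49.1% of all genes, and their median was 0.27, against -0.0038 for all genes. These shares describe linked genes and are not a test of the group.

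PSMB9 had 7.12 in H1, 7.001 in H9 and 6.68 in HSF1 with inhibitor in FS culture, against 6.29, 6.39 and 6.45 with DMSO in the same lines. In FF culture its values were 7.35, 7.53 and 7.73 with inhibitor, against 6.08, 6.12 and 6.56 with DMSO. Every inhibitor array lay above every DMSO array within each culture system, and the smallest gain was that of FS HSF1 cells, 0.23. PSMB9 replaces the constitutive subunit PSMB6 in the immunoproteasome.

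PSMB8, which replaces PSMB5, had 8.08 in H1, 8.14 in H9 and 7.46 in HSF1 with inhibitor in FS culture, against 7.65, 7.27 and 7.53 with DMSO. In FF culture it had 8.36, 8.27 and 8.64 with inhibitor, against 7.93, 7.36 and 8.54 with DMSO. H9 gained 0.87 in FS culture and 0.91 in FF culture while HSF1 differed by -0.07 and 0.09, so the groups overlapped, and the mean difference was 0.44 (SE 0.201, limma adjusted p = 0.616, 5 of 6 pairs higher). PSMB10, which replaces PSMB7, differed by 0.01 (SE 0.128), between -0.10 and 0.21 in the 6 pairs. Of the constitutive counterparts PSMB6 differed by 0.09 (SE 0.0992), PSMB5 by -0.07 (SE 0.093) and PSMB7 by -0.01 (SE 0.142), none past the threshold. Of 16 subunits and helpers of the constitutive proteasome tested 0 passed with limma, and 0 had an unadjusted p under 0.05.

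B2M, the light chain shared by all class I molecules, had 12.22 in H1, 12.10 in H9 and 11.55 in HSF1 with inhibitor in FS culture, against 11.66, 11.10 and 10.74 with DMSO. In FF culture it had 11.99, 11.83 and 12.38 with inhibitor, against 10.91, 10.54 and 11.50 with DMSO. The FS groups overlapped, with H1 under DMSO above HSF1 under inhibitor, and the FF groups were separate. Within lines the gain ran from 0.56 in FS H1 cells to 1.29 in FF H9 cells. HSF1 was the lowest line on feeders and the highest without them, which a line term shared by both culture systems does not absorb. With each pair of line and culture as a block, B2M passed (SE 0.0663, limma adjusted p = 8.14e-06), as did HLA-E (0.00253), PSMB8 (0.0277), TAPBP (0.0365) and PSMB9 (6.26e-05), 5 of 10 members where 10.5% of all genes were called higher.

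The heavy chain HLA-E had 9.20 in H1, 9.33 in H9 and 8.47 in HSF1 with inhibitor in FS culture, against 9.05, 8.78 and 8.08 with DMSO, and these groups overlapped. In FF culture it had 9.57, 9.51 and 9.62 with inhibitor, against 9.27, 8.86 and 8.94 with DMSO, and these groups did not. Its other probe sets differed in the same direction, by 0.59 and 0.32 over both culture systems, and none passed the threshold. The dimmest set had separate FS groups, 7.06 to 7.25 with inhibitor against 6.62 to 6.80 with DMSO. HLA-F differed by -0.02 (SE 0.239) in FS culture and by 0.38 (SE 0.239) in FF culture, there higher in 3 of 3 lines. Probe sets of HLA genes whose name ends in _x_at can bind RNA of several HLA genes, and both HLA-E and HLA-F are read here by such a set.

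The peptide transporter genes did not pass. TAP1 had 7.42 in H1, 7.52 in H9 and 7.77 in HSF1 with inhibitor in FF culture, against 7.43, 7.29 and 7.82 with DMSO. Over all pairs it differed by 0.06 (SE 0.177) and was higher in 2 of 6. TAP2 differed by 0.11 (SE 0.15, 4 of 6 pairs), and ERAP1, the trimming peptidase, by 0.02 (SE 0.255, 4 of 6 pairs). The second TAP2 probe set differed by 0.55 in H1, 0.87 in H9 and 0.09 in HSF1 in FF culture. In FS culture that set differed by 0.36, 0.84 and -0.68. TAPBP differed by 0.36 (SE 0.189, limma adjusted p = 0.739, 5 of 6 pairs), with FF values of 8.57, 8.86 and 8.51 with inhibitor in H1, H9 and HSF1, against 8.09, 8.48 and 8.17 with DMSO. Its second probe set moved less, at 6.41 with inhibitor and 6.28 with DMSO on average in FF culture, and 7.21 and 7.32 in FS culture.

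**Figure D1:**
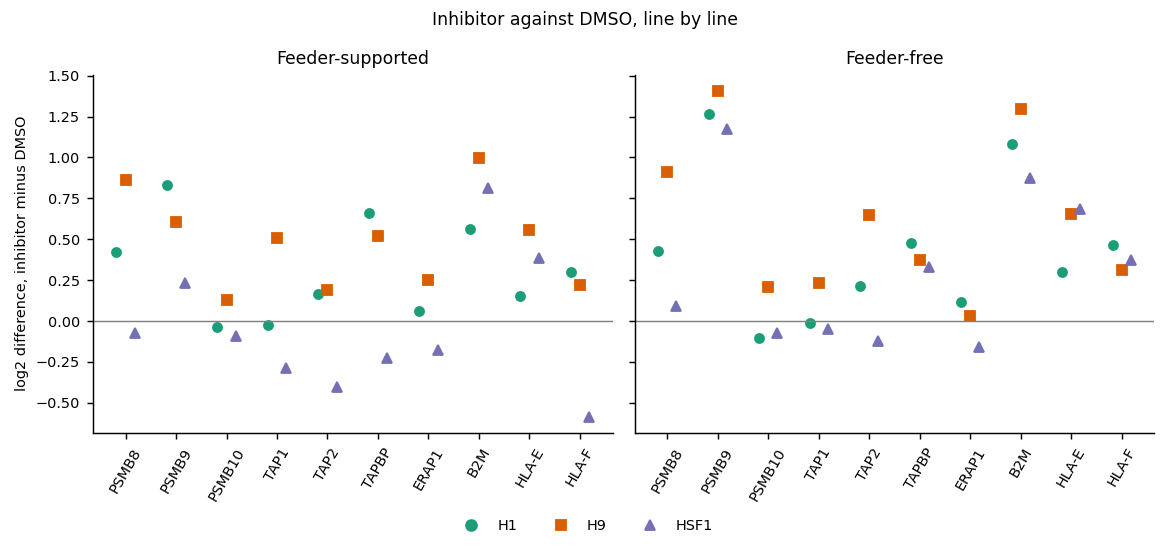
Log2 difference, inhibitor minus DMSO, of each of the 10 genes (x axis) in each line (1 point per line, y axis), for feeder-supported cells on the left and feeder-free cells on the right. PSMB9, B2M and HLA-E lie above 0 in all 6 pairs, PSMB9 between 0.23 and 1.41, while TAP1, PSMB10 and ERAP1 lie on both sides of 0.

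The culture systems were also taken apart. In FS culture 0 members passed with limma, where 0.00581% of all genes were called higher, and 2 members, PSMB9 (0.56, SE 0.19) and B2M (0.79, SE 0.286), had an unadjusted p under 0.05. By the sets that represent the genes PSMB9 alone had separate FS groups, against 1.3% of all genes, and 7 members lay above 0, against 52.9%. In FF culture PSMB9 rose by 1.28 (SE 0.19, 2.43-fold, limma adjusted p = 0.00945), the 1 member called where 0.604% of all genes were called higher, and 4 members, PSMB9, B2M, HLA-E and TAPBP, had every inhibitor array above every DMSO array, against 12.4% of all genes. In FF culture 6 members were higher in every line, against 27.8% of all genes, and 9 lay above 0, against 47.3%. The FS response minus the FF response was -0.72 for PSMB9 (SE 0.269, unadjusted p = 0.02, limma adjusted p = 1.00) and lay above 0 for 2 of 10 members, against 50.7% of all genes, and 0 members passed that test, where 0.0174% of all genes were called lower. It was -0.40 for HLA-F, -0.29 for B2M, -0.27 for TAP2 and -0.18 for HLA-E, and lay between -0.08 and 0.05 for TAPBP, PSMB8, PSMB10, TAP1 and ERAP1 (SE 0.257 to 0.509). The 4 groups share arrays in these comparisons.

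Line by line the values were as follows. In FS culture the median of the 10 differences was 0.23 in H1, 0.51 in H9 and -0.14 in HSF1, with 8, 10 and 3 members above 0. In FF culture it was 0.37 in H1, 0.51 in H9 and 0.21 in HSF1, with 8, 10 and 6 members above 0. The median over all genes lay between -0.01 and 0.06 in every line and culture. The FS HSF1 arrays are those that stand apart, and without them 5 members passed over both culture systems, B2M, PSMB8, PSMB9, TAPBP and HLA-E, where 6.01% of all genes were called higher. PSMB9 then differed by 1.00 (SE 0.0849). Without H1 PSMB9 differed by 0.86 (limma adjusted p = 0.423) and without H9 by 0.88 (limma adjusted p = 0.473), and it was not called in either case, where 2 of all 17218 genes were.

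Of the other class I pathway genes, 0 of 16 passed with the inhibitor by limma, 4 of them at an unadjusted p under 0.05, and 10 of 16 lay above 0. The classical heavy chains HLA-B and HLA-C differed by 0.47 (SE 0.181) and 0.39 (SE 0.152), each higher in 6 of 6 pairs, and PSME1, a subunit of the proteasome activator, by 0.53 (SE 0.176, 6 of 6 pairs). HLA-G differed by 0.08 (SE 0.156). NLRC5, the activator of class I promoters, averaged 5.60 with inhibitor and 5.45 with DMSO in FF culture, near the filter, and differed by 0.11 over both systems (SE 0.112). IRF1, another activator of these promoters, differed by 0.18 (SE 0.155). Of 25 regulators tested 0 passed by limma and 1 had an unadjusted p under 0.05.

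Among 29 interferon-stimulated genes 3 passed, each higher, where 0.47% of all genes were called higher. They were the restriction factor BST2 (2.63, SE 0.174, limma adjusted p = 8.53e-05), the RNA sensor IFIH1 (1.13, SE 0.214, limma adjusted p = 0.0432) and DDX60 (1.01, SE 0.193, limma adjusted p = 0.0449). The median of the 29 was 0.06. Of 12 class II and leukocyte genes tested 0 passed over both systems, and HLA-DPA1, a class II chain, rose by 0.83 in FF culture (SE 0.154, limma adjusted p = 0.029). Of 20 fibroblast markers 1 passed, and 16 lay above 0 over both systems, against 49.1% of all genes, with a median of 0.26. Their part in the values of the 10 genes was not tested. PSME2 was not analysed here.

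**Figure D2:**
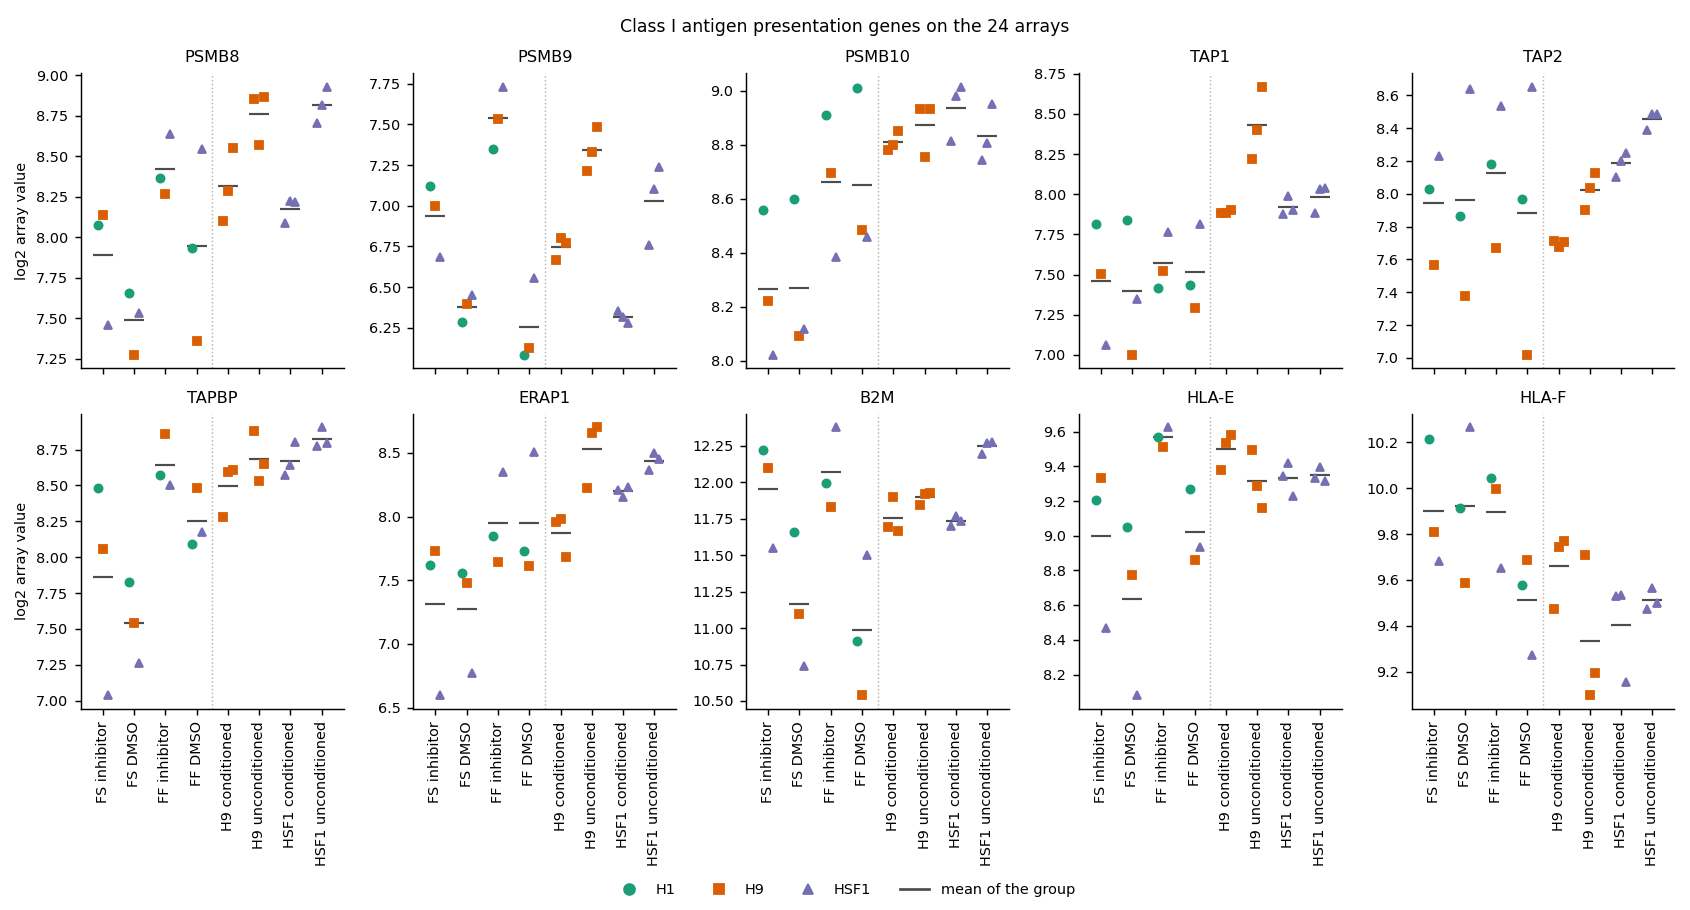
Log2 array values of the 10 genes on the 24 arrays, 1 panel per gene with its own y axis; symbols give the line and bars the mean of each group's 3 arrays, with the first experiment left of the dotted line. PSMB9 averaged 7.54 in FF cells with inhibitor, its highest group of the 8, and 6.26 in FF cells with DMSO, its lowest. Both overlapped the group nearest in mean, which was of the second experiment. FF cells in unconditioned medium averaged 7.34 in H9 and 7.03 in HSF1, and the experiments were not tested against each other.

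Over the 4 groups of the first experiment, FF cells with inhibitor had the highest mean of 8 of the 10 genes, all but ERAP1 and HLA-F. They lay apart from the next group for HLA-E, PSMB9 and TAPBP alone. The lead was 0.012 for PSMB10, 0.056 for TAP1 and 0.17 for TAP2, and ERAP1 missed by 0.0032. The share of all genes with this order was not counted. The lowest mean was that of FS cells with DMSO for 5 genes, ERAP1, HLA-E, PSMB8, TAP1 and TAPBP, of FF cells with DMSO for 4, B2M, HLA-F, PSMB9 and TAP2, and of FS cells with inhibitor for PSMB10. For PSMB9 the order was FF with inhibitor (7.54 ± 0.192, SD, n = 3), FS with inhibitor (6.94 ± 0.226), FS with DMSO (6.38 ± 0.0823) and FF with DMSO (6.26 ± 0.263), and only the last neighbours overlapped. For B2M it was FF with inhibitor (12.07 ± 0.279), FS with inhibitor (11.96 ± 0.356), FS with DMSO (11.17 ± 0.463) and FF with DMSO (10.98 ± 0.486), and all neighbours overlapped.

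Feeders were compared in each treatment on the same arrays. With DMSO 4 of the 10 genes were higher on feeders than without, against 42.5% of all genes, and with inhibitor 1 was, against 42.7%. With inhibitor PSMB9 fell by 0.60 (SE 0.19, limma adjusted p = 0.027) and TAPBP by 0.79 (SE 0.268, limma adjusted p = 0.0344) in FS cells relative to FF cells, lower in 3 of 3 lines, 2 of 10 members where 27.8% of all genes were called lower. For TAPBP this holds for the brightest probe set alone, since its second set rose by 0.79 (limma adjusted p = 0.023) and the mean of its sets differed by 0.051. With inhibitor 4 members, PSMB9, PSMB8, TAPBP and HLA-E, had all FS arrays below all FF arrays, against 32.1% of all genes. With DMSO 2 members did, TAPBP and ERAP1, against 30.6%, each by its brightest probe set and not by its second. With DMSO 0 members passed by limma, where 39.3% of all genes were called, and 1 had an unadjusted p under 0.05, against 9525 of all 17218 genes. That gene, TAPBP, differed by -0.71 (SE 0.268, limma adjusted p = 0.0533) with 7.82 in H1, 7.54 in H9 and 7.27 in HSF1 on feeders, against 8.09, 8.48 and 8.17 without.

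The median of the 10 differences between FS and FF cells was -0.25 with DMSO, against -0.19 for all genes, and -0.46 with inhibitor, against -0.20 for all genes. That shift of all genes was -0.30 and -0.32 with arrays brought to a common median and 0.04 and 0.03 after quantile normalization, so directions near it depend on the scaling. The median of the 10 was -0.36 and -0.58 with a common median and 0.09 and -0.01 after quantile normalization. Without the FS HSF1 arrays it was -0.04 and -0.07, against -0.11 and -0.10 for all genes. The shift of the 10 genes thus also depended on the scaling and on those arrays. ERAP1 was furthest apart between lines: it differed by -1.73 in HSF1 with DMSO, against -0.18 in H1 and -0.13 in H9. This is the reading of its brightest probe set. The second set differed by 0.54 in HSF1, 0.32 in H1 and -0.01 in H9. The third, near the filter, differed by -0.40, -0.17 and -0.41. PSMB10 was more even, at -0.41, -0.39 and -0.34 in H1, H9 and HSF1 with DMSO. With DMSO and without the FS HSF1 arrays, PSMB10 and TAPBP passed as lower on feeders, where 32.1% of all genes did, and B2M as higher, where 16.5% did. PSMB9 differed by 0.12 (SE 0.19) between FS and FF cells with DMSO. With DMSO HLA-F differed by 0.41 (SE 0.239), B2M by 0.18, TAP2 by 0.08, TAP1 by -0.12 (SE 0.25), HLA-E by -0.39 and PSMB8 by -0.46. With inhibitor HLA-F differed by 0.0039, TAP1 and B2M by -0.11 each, TAP2 by -0.19, PSMB10 by -0.40, PSMB8 by -0.53, HLA-E by -0.57 and ERAP1 by -0.63, none past the threshold.

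Of the other class I pathway genes, 7 of 16 passed on feeders with DMSO, 3 higher and 4 lower, where 15.2% of all genes were called higher and 24.1% lower. The stress ligands MICA (-0.77, SE 0.173) and MICB (-1.03, SE 0.3) were among those that fell, and ULBP2 (0.77, SE 0.191) and MR1 (0.55, SE 0.168) among those that rose. Against the same shares of all genes, 1 of 25 regulators rose and 9 fell. The 1 that rose was NLRC5 (0.48, SE 0.158, limma adjusted p = 0.035), at 5.93 ± 0.327 on feeders and 5.45 ± 0.22 without (SD, n = 3 each). Those that fell include SOCS3, a brake on cytokine signalling (-1.92), IRF3 (-0.98), and RFX5 (-1.06) and NFYC (-0.92), factors of the complex that binds class I and class II promoters. BST2 fell by 1.38 (SE 0.246). Of 20 fibroblast markers 8 rose and 0 fell against the same shares, and their part in these values was not tested.

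PSMB8, PSMB9 and TAP2 fell in conditioned medium in both lines tested. In H9 cells 5 of the 10 genes fell, where 13% of all 16572 genes were called lower: ERAP1 by 0.65 (SE 0.111, limma adjusted p = 0.000913), PSMB9 by 0.60 (SE 0.11, 0.00172), TAP1 by 0.54 (SE 0.096, 0.00135), PSMB8 by 0.45 (SE 0.109, 0.011) and TAP2 by 0.32 (SE 0.0764, 0.0093). In HSF1 cells 4 fell, where 9.78% of all genes were called lower: PSMB9 by 0.72 (SE 0.11, limma adjusted p = 0.000241), PSMB8 by 0.64 (SE 0.109, 0.000651), B2M by 0.51 (SE 0.0627, 2.6e-05) and TAP2 by 0.27 (SE 0.0764, 0.0212). The median of the 10 differences was -0.26 in H9 and -0.20 in HSF1, against -0.03 and 0.03 for all genes, and 2 and 1 members lay above 0, where 45.2% and 56.4% of all genes did.

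PSMB9 had 6.66, 6.80 and 6.77 in replicates 1, 2 and 3 of H9 in conditioned medium, against 7.21, 7.33 and 7.48 in unconditioned medium. In HSF1 it had 6.35, 6.32 and 6.28 in conditioned medium, against 6.76, 7.10 and 7.24 in unconditioned medium. No values overlapped in either line. The other immunosubunit to fall, PSMB8, had 8.10, 8.29 and 8.55 in conditioned H9 cells, against 8.85, 8.57 and 8.87 in unconditioned ones, where the nearest arrays were 8.55 and 8.57. In HSF1 PSMB8 had 8.09, 8.23 and 8.22 in conditioned medium, against 8.71, 8.81 and 8.93. PSMB10 did not pass, with differences of -0.06 in H9 and 0.10 in HSF1 (SE 0.0807 each).

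TAP2 had 7.71, 7.68 and 7.71 in conditioned H9 cells, against 7.90, 8.04 and 8.13 in unconditioned ones. In HSF1 it had 8.11, 8.20 and 8.25 in conditioned medium, against 8.39, 8.49 and 8.49. Its partner TAP1 had 7.88, 7.88 and 7.90 in conditioned H9 cells, against 8.22, 8.40 and 8.67. In HSF1 TAP1 had 7.88, 7.99 and 7.90 in conditioned medium, against 7.88, 8.03 and 8.04, groups that overlap, with a difference of -0.06 (SE 0.096).

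ERAP1 had 7.96, 7.98 and 7.68 in conditioned H9 cells, against 8.23, 8.65 and 8.70 in unconditioned ones. In HSF1 it had 8.21, 8.16 and 8.23 in conditioned medium, against 8.36, 8.50 and 8.45, which did not overlap but did not pass (-0.24, SE 0.111, limma adjusted p = 0.154). B2M had 11.70, 11.77 and 11.74 in conditioned HSF1 cells, against 12.19, 12.27 and 12.28 in unconditioned ones. In H9 B2M had 11.69, 11.90 and 11.67 in conditioned medium, against 11.84, 11.92 and 11.93, which overlap (-0.14, SE 0.0627). In each line 5 members had separate groups with conditioned medium lower, against 19.4% of all genes in H9 and 20.5% in HSF1.

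No heavy chain passed with conditioned medium by the set that represents it, while another set each of HLA-E and HLA-F rose in HSF1, as given with the probe sets. In H9 HLA-E differed by 0.18 (SE 0.0867) and HLA-F by 0.33 (SE 0.137), the 2 members above 0. Both were called higher without replicate 1 of unconditioned H9 cells, which leaves the replicates with the high ACTB difference. Against replicate 1 alone HLA-E differed by 0.0072 and HLA-F by -0.046. In HSF1 they differed by -0.02 and -0.11. HLA-B differed by 0.15 (SE 0.103) in H9 and -0.03 in HSF1, and HLA-C by 0.11 (SE 0.0916) and 0.13. TAPBP differed by -0.19 in H9 and -0.15 in HSF1 (SE 0.104 each).

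**Figure D3:**
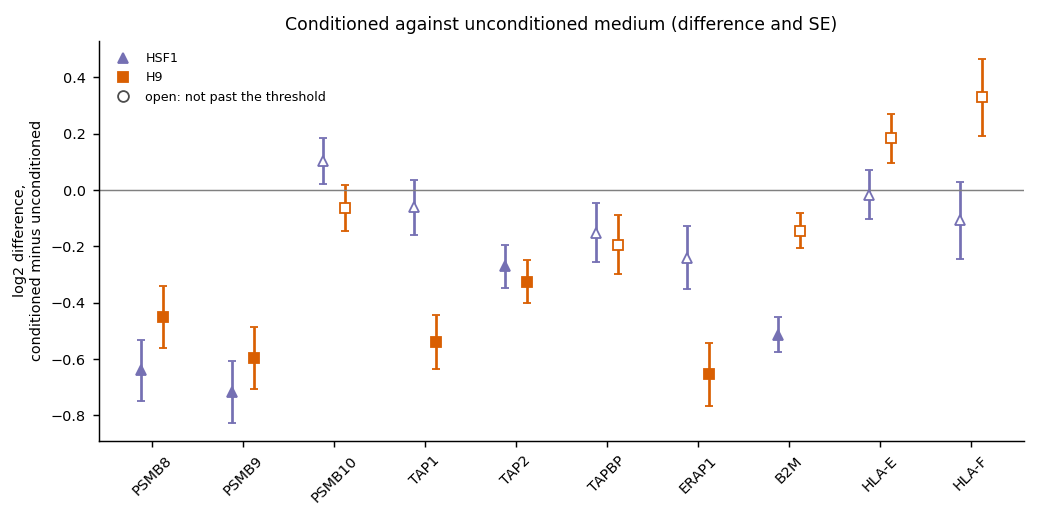
Fitted log2 difference, conditioned minus unconditioned medium, of the 10 genes (x axis) in HSF1 and H9 cells, with bars for the SE (n = 3 arrays per group) and filled symbols for genes past the threshold. PSMB8, PSMB9 and TAP2 lie below 0 with filled symbols in both lines, B2M in HSF1 and TAP1 and ERAP1 in H9.

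The difference between the lines was tested directly, as the HSF1 effect minus the H9 effect. It passed for 2 members, where 5.65% of all genes were called higher and 2.08% lower: B2M at -0.37 (SE 0.0887, limma adjusted p = 0.0202) and TAP1 at 0.48 (SE 0.136, limma adjusted p = 0.0421). For ERAP1 it was 0.41 (SE 0.157, limma adjusted p = 0.116), for HLA-F -0.44 (SE 0.194, limma adjusted p = 0.178), and for PSMB8, PSMB9 and TAP2 it was -0.19, -0.12 and 0.05. For HLA-E it was -0.20, for PSMB10 0.17 and for TAPBP 0.04, none past the threshold. Replicates 2 and 3 of unconditioned H9 cells are those with the high ACTB difference. Without them PSMB8 alone passed in H9 (-0.54, limma adjusted p = 0.04), where 2.59% of all genes were called lower, while PSMB9 was -0.47 (0.112), TAP1 -0.33 (0.0756), ERAP1 -0.35 (0.113) and TAP2 -0.20 (0.301). The lone array of that group was then assumed to vary as the others do, and B2M remained called between the lines but TAP1 did not.

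Other lists moved with the medium as follows. Of all genes 3.45% were called higher and 13% lower in H9, and 8.57% higher and 9.78% lower in HSF1. Of 15 other class I pathway genes tested, MICB (0.26, SE 0.0748) and ULBP2 (0.36, SE 0.118) rose in H9 and 0 fell. In HSF1 MICB (0.69, SE 0.0748) and MICA (0.34, SE 0.0833), ligands of the natural killer receptor NKG2D, rose and the chaperones HSPA5 (-0.25) and PDIA3 (-0.19) fell. Of 25 regulators 7 fell and 0 rose in H9, led by IRF2 (-0.56, SE 0.0848), NFKB1 (-0.45, SE 0.096), the interferon receptor chain IFNAR1 (-0.38, SE 0.0866) and the kinase JAK1 (-0.36, SE 0.0919). In HSF1 3 fell and 2 rose: JAK1 (-0.61, SE 0.0919), RFXAP (-0.49) and IRF2 (-0.29) fell, and IRF7 (0.44, SE 0.0892) was 1 of those that rose. JAK1, IRF2 and RFXAP fell in both lines.

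NLRC5 differed by -0.03 in H9 and -0.27 in HSF1 (SE 0.135 each), and IRF1 by -0.26 (SE 0.0885, limma adjusted p = 0.055) and 0.01. Of 26 interferon-stimulated genes tested 1 rose and 7 fell in H9, and 4 rose and 5 fell in HSF1. For this and the lists below, 3.45% of all genes rose and 13% fell in H9, and 8.57% and 9.78% in HSF1. IFIH1 fell in both lines, with differences of -1.99 in H9 and -1.16 in HSF1 (SE 0.129 each). BST2 fell by 0.58 in H9 (SE 0.117) and differed by -0.09 in HSF1. The constitutive subunits PSMB5, PSMB6 and PSMB7 differed by -0.04 to 0.05 in the lines. Of 16 proteasome genes 1 rose and 1 fell in H9, and in HSF1 0 passed by limma, with 2 at an unadjusted p under 0.05. Class II HLA-DPA1 fell by 0.44 in H9 and 0.58 in HSF1 (SE 0.0893 each). The mean of the fibroblast markers lay between 7.22 and 7.29 in conditioned and between 7.27 and 7.33 in unconditioned H9 cells, and between 7.08 and 7.19 against 7.20 to 7.28 in HSF1. Of 17 fibroblast markers tested 2 rose and 4 fell in H9, and 1 rose and 3 fell in HSF1, and their part in the result was not tested.

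HSF1 and H9 already differed in unconditioned medium. TAP2 was higher in HSF1 by 0.43 (SE 0.0764, limma adjusted p = 0.000815) and B2M by 0.35 (SE 0.0627, 0.000887), and TAP1 was lower by 0.45 (SE 0.096, 0.00348), 3 of 10 members where 10.2% of all genes were called higher and 13.4% lower. For TAP2 the direction is that of its brightest probe set: its second set differed by -1.27 (limma adjusted p = 6.5e-07) and the mean of its sets differed by -0.26. PSMB9 differed by -0.31 (SE 0.11, limma adjusted p = 0.0502), just outside the threshold, and the other 6 members by -0.09 to 0.18. Without replicates 2 and 3 of unconditioned H9 cells TAP1 was lower by 0.24 (limma adjusted p = 0.157). The highest group mean of the 4 was in unconditioned medium for 7 of the 10 genes, HSF1 for B2M, PSMB8, TAP2 and TAPBP and H9 for ERAP1, PSMB9 and TAP1, the exceptions being HLA-E, HLA-F and PSMB10. That highest group lay apart from the next for B2M, TAP1 and TAP2 alone, and the share of all genes with this order was not counted.

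Over the 4 medium groups the order for PSMB9 was unconditioned H9 (7.34 ± 0.135, SD, n = 3), unconditioned HSF1 (7.03 ± 0.248), conditioned H9 (6.75 ± 0.0728) and conditioned HSF1 (6.32 ± 0.0365), and only conditioned HSF1 lay apart from its neighbour. For B2M it was unconditioned HSF1 (12.25 ± 0.0462), unconditioned H9 (11.90 ± 0.0472), conditioned H9 (11.75 ± 0.124) and conditioned HSF1 (11.73 ± 0.0353), and only the first lay apart from its neighbour.

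Probe sets of 1 gene did not always move alike. Beside the sets that represent the genes, 11 further sets passed the filter in the first experiment and 10 in the second, and their p-values were adjusted over all 33411 and 31925 probe sets tested. Sets are named here by their order of mean value within the gene, the first being the one used above. With inhibitor the first B2M set differed by 0.94 and the second by 0.95. In conditioned HSF1 cells they fell by 0.51 and 0.42 (limma adjusted p = 8.78e-05 and 0.0184), and in conditioned H9 cells they differed by -0.14 and 0.28. The dimmest B2M set lay between 3.68 and 4.44 on all arrays and did not pass the filter.

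TAP2 sets gave opposite orders of the lines. In unconditioned medium the first set was higher in HSF1 than in H9 by 0.43 (limma adjusted p = 0.00178) and the second was lower by 1.27 (SE 0.0984, limma adjusted p = 6.5e-07). Both fell in conditioned medium, the second by 0.61 in H9 (limma adjusted p = 0.00139) and by 0.52 in HSF1 (limma adjusted p = 0.00287). On feeders with DMSO the second TAP2 set fell by 0.97 (SE 0.316, limma adjusted p = 0.0333) and the first differed by 0.08. The dimmest TAP2 set was above log2 5 on 4 arrays, all of them FS arrays of H9 and HSF1, and its differences are not given.

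For TAPBP the first set was at 7.54 ± 0.28 on feeders and 8.25 ± 0.206 without (DMSO, SD, n = 3 each). Its second set was at 7.32 ± 0.512 on feeders and 6.28 ± 0.135 without, a rise of 1.04 (SE 0.239, limma adjusted p = 0.0116). With inhibitor the second TAPBP set rose by 0.79 in FS cells (limma adjusted p = 0.023), where the first fell by 0.79. The dimmest HLA-E set, which is not an _x_at set, rose by 0.45 in conditioned HSF1 cells (SE 0.0848, limma adjusted p = 0.00269), with 8.13, 8.06 and 7.88 in conditioned medium, against 7.47, 7.58 and 7.66, while the first differed by -0.02. The dimmest HLA-F set rose by 0.44 in the same cells (limma adjusted p = 0.0272), and the first differed by -0.11. In conditioned H9 cells the first ERAP1 set fell by 0.65 and the second differed by 0.23. With DMSO the second ERAP1 set averaged 6.40 on feeders and 6.12 without, where the first averaged 7.27 and 7.95. PSMB8, PSMB9, PSMB10 and TAP1 have 1 probe set each.

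**Figure D4:**
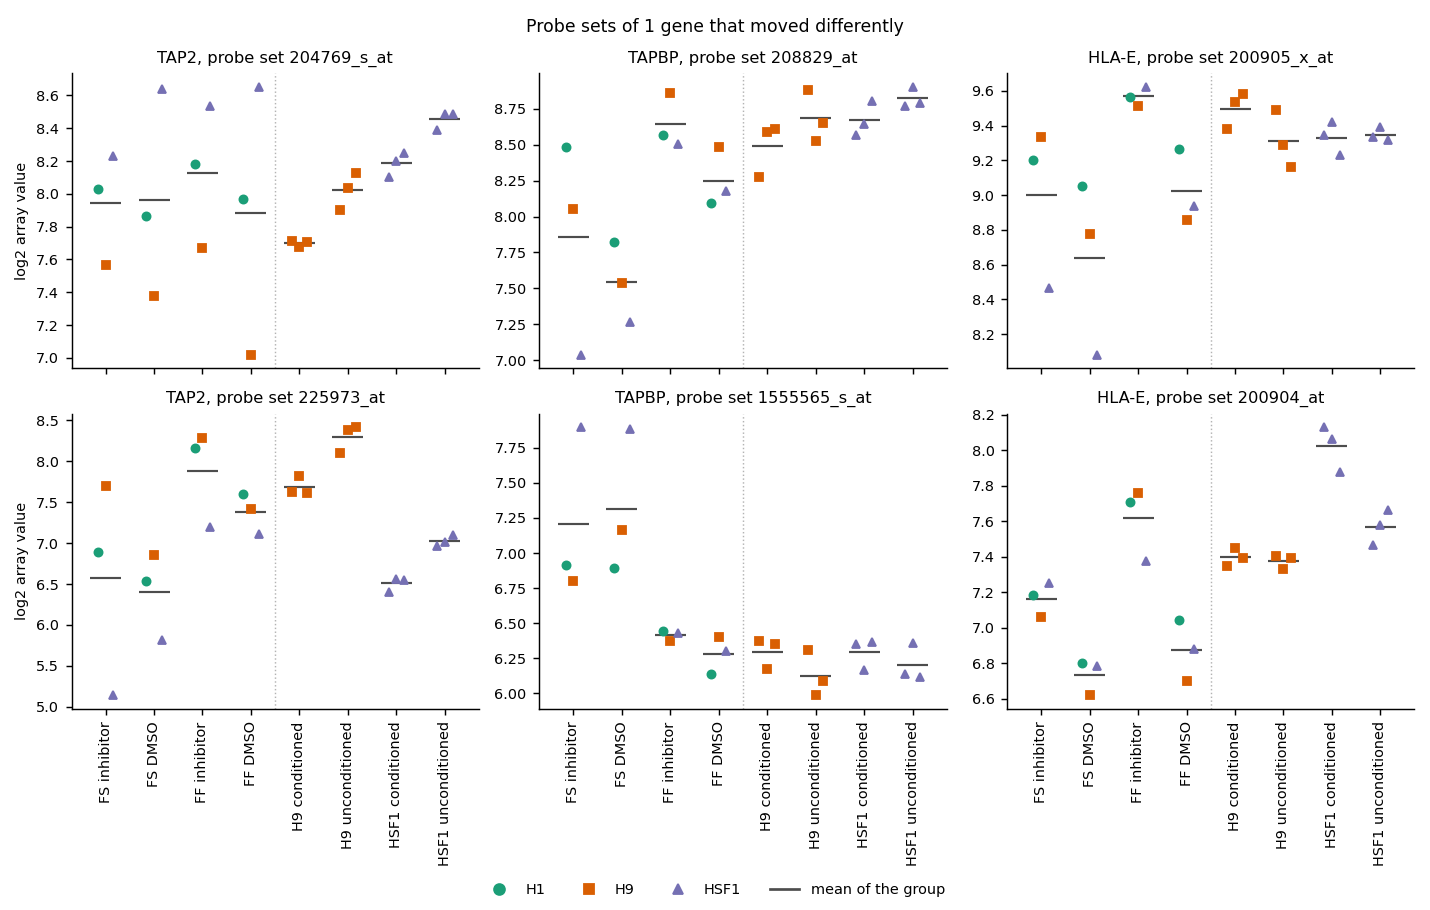
Log2 array values of 2 probe sets each of TAP2, TAPBP and HLA-E on the 24 arrays, the set that represents the gene above and another set below, each panel with its own y axis; symbols give the line and bars the mean of each group's 3 arrays. The lower TAP2 set is below H9 in HSF1 where the upper set is above it, and the lower TAPBP set averages 7.32 on feeders with DMSO against 6.28 without, opposite to the upper set.

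Some genes followed the members closely over the 24 arrays, after the mean of each line within each experiment was subtracted. Among 17262 genes outside the members, those with the highest Pearson correlation with PSMB9 were FGD5 (0.928), TTC39A (0.907), CLIC6 (0.906), TMEM144 (0.904) and BTN3A2 (0.892). With B2M they were TMEM154 (0.925), RBP7 (0.923), PTGR1 (0.922), MCTS1 (0.91) and BACE2 (0.909), and with the mean of the 10 members NSMCE1 (0.967), NDUFAF1 (0.956), PLGRKT (0.943), SNX10 (0.941) and CYREN (0.941). They were picked for these values, and the arrays share their treatments. Among the members PSMB9 correlated most with B2M (0.845) and PSMB8 (0.792) and least with HLA-F (0.148) and PSMB10 (0.181).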

How the data were processed

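RNA of 24 human embryonic stem cell cultures was measured on Affymetrix arrays. The authors deposited log2 values made with RMA, per the submitters' processing notes, which name no version. The array annotation names 1 gene for 41097 of 54675 probe sets, and the one with the highest mean stood for its gene. Genes above log2 5 on at least 3 arrays of an experiment were tested in R 4.3.3 with limma 3.58.1 (linear model, empirical Bayes with an intensity trend, Benjamini-Hochberg adjustment): group and line as terms in the first experiment, group alone in the second. Groups came from the labels. Inhibitor arrays pair with DMSO arrays because they are of the same line. In the second experiment arrays with the same replicate number correlated between -0.27 and 0.13 in their deviations, and those with other numbers between -0.40 and 0.41. Deviations from a mean of 3 arrays cannot decide whether the numbers pair arrays, and the main fit did not pair them. Of all pairs of arrays 0 held identical values. The members and lists were chosen with earlier results of these data known. All members entered each comparison and are named or counted there. Beside them stand genes of a fixed related set, not all of them in each comparison. Up to 4 further genes of a list past the threshold with the smallest p are also given. Alternatives covered probe sets, scaling, filters, array weights, RNA quality, blocks and left-out arrays. Promoter windows are RefSeq's, and the number of arrays limits precision.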

Additional observations from a re-analysis of the deposited data

Results flagged for a closer look

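The effect of conditioned medium differed between the lines, as tested by the HSF1 effect minus the H9 effect, for 2 of the 10 genes: B2M by -0.37 (limma adjusted p = 0.0202) and TAP1 by 0.48 (limma adjusted p = 0.0421). B2M was lower in conditioned medium by 0.51 in HSF1 and by 0.14 in H9, and TAP1 by 0.06 in HSF1 and by 0.54 in H9. B2M was called in 19 of 23 alternatives and TAP1 in 5 of 23. The same test passed for RFX5 at 0.35 (limma adjusted p = 0.0288), RELA at 0.44 (0.0377) and MICB at 0.44 (0.0211). It also passed for the interferon-stimulated genes TRIM22 at 0.64 (limma adjusted p = 0.00112) and IFIH1 at 0.83 (0.0134). Replicates 2 and 3 of unconditioned H9 cells, with the large ACTB difference, enter each of these values, and their part in the genes other than the 10 members was not tested.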

How the results depend on the processing

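Each member was refitted under up to 15 alternatives in the first experiment and 23 in the second. Of 1790 such results 1660 kept their side of the threshold, 51 lost a call, 76 gained one and 3 reversed. The reversed ones were TAPBP on feeders with inhibitor (0.051 as the mean of its probe sets), TAP2 between lines (-0.26 as the mean of its probe sets) and HLA-F with inhibitor in FS culture (0.47 with array weights). Among the differences that were not called 111 changed sign. The cause was not tested.

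With inhibitor over both culture systems 1 member passed, against 2 with the ACTB covariate, 7 with array weights, 2 with quantile normalization and 5 without the FS HSF1 arrays. Of all genes 110 were called, against 176 with the ACTB covariate, 129 with quantile normalization and 1367 without the FS HSF1 arrays. In FF culture 1 member passed, against 2 with the ACTB covariate, 6 with array weights and 3 without the FS HSF1 arrays. With quantile normalization it was B2M (1.11) in place of PSMB9 (limma adjusted p = 0.0522). Of all genes 145 were called in FF culture, against 222 with the ACTB covariate, 122 of 17041 with quantile normalization and 1665 without the FS HSF1 arrays. In FS culture 0 members passed, against 6 with array weights. The array weights did not converge, so these counts are uncertain. They called 5888 of all 17218 genes over both systems, 3490 of them higher (81 without weights). In FF culture they called 2388 genes, in FS culture 1938 and on feeders with DMSO 11360. Leaving out 1 line gave 0 to 3 members over both systems, and 0 to 2 in FF culture, where 2 to 496 and 6 to 437 of all genes were called. With the replicate block of line within culture system 5 members passed over both systems, 3 in FF culture and 1 in FS culture. Of all 17218 genes 2734, 2413 and 86 were then called.

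On feeders with DMSO 0 passed, against 4 with array weights, 1 each with a common array median, the mean of all probe sets and quantile normalization, 3 without the FS HSF1 arrays, and 0 to 1 without 1 line. On feeders with inhibitor 2 passed, against 0 with the ACTB covariate or quantile normalization, 4 with array weights, 1 with no replicate block and 0 without any 1 line. Of all 17218 genes 8103 were called there, against 749 with the ACTB covariate, 12282 with array weights and 3323 with no replicate block. Quantile normalization called 4196 of 17041, and fits without 1 line 790 to 6620. With DMSO 6772 genes were called, against 11360 with array weights and 368 to 6459 without 1 line. A common array median called 6725 of 17114 there, the mean of all probe sets 7035 of 16451 and quantile normalization 3133 of 17041. Without the FS HSF1 arrays 8365 of 17218 were called.

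In conditioned H9 cells 5 passed, against 1 without unconditioned H9 replicates 2 and 3, 4 with the ACTB covariate, 7 with array weights and 4 to 7 without 1 array. The 7 without unconditioned H9 replicate 1 include HLA-E and HLA-F as higher, against the replicates with the high ACTB difference alone. In conditioned HSF1 cells 4 passed, against 3 to 5 without 1 array and 5 with the ACTB covariate or array weights. The difference between lines gave 2, against 1 with the ACTB covariate, a common array median, every probe set on its own, quantile normalization, the replicate block by number, or without those H9 arrays, 4 with array weights, 0 with no intensity trend, and 0 to 4 without 1 array. The line comparison gave 3, against 5 with the mean of all probe sets and 3 to 6 without 1 array. The replicate block by number left 5 members in H9 and 4 in HSF1. Of 16572 genes the main fit called 2720 in H9, the ACTB covariate 1469, array weights 4277 and fits without 1 array 1328 to 5295. In HSF1 these counts were 3040, 4033, 4770 and 1853 to 3895. For the difference between lines they were 1281, 891, 3113 and 513 to 3282. A common array median called 1098 of 16633 there, quantile normalization 1260 of 16662 and every probe set on its own 1776 of 31925. No intensity trend called 1009 and the replicate block 757. The line comparison called 3914 genes, and 2469 to 5547 without 1 array. The replicate block called 1934 in H9 and 2390 in HSF1.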
